A study of Rattus norvegicus with 158 samples.

Results

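The 10 genes described here control how rat thigh muscle takes up glucose, runs glycolysis and stores or breaks down glycogen: Slc2a4, Hk2, Pfkm, Pfkfb1, Pfkfb3, Fbp2, Gys1, Pygm, Phkg1 and Phka1. They were chosen by name from the 14217 genes measured, and each was read from the probe set annotated to that gene alone with the highest mean over all arrays. Each value is a log2 signal of 1 probe set, so values can be compared between arrays for 1 gene but not between genes.

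In skeletal muscle, glucose enters through the insulin-responsive transporter Slc2a4 (GLUT4) and is phosphorylated by hexokinase, of which Hk2 is the form most tied to insulin and contraction. Phosphofructokinase, encoded in muscle by Pfkm, is the main control point of glycolysis, and its activator is made and removed by the bifunctional enzymes Pfkfb1 and Pfkfb3, while Fbp2 catalyses the reverse step. Glycogen is built by the synthase Gys1 and broken down by the phosphorylase Pygm, which phosphorylase kinase switches on. Phkg1 encodes the catalytic subunit of that kinase and Phka1 a regulatory subunit of its muscle form.

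Male Sprague Dawley CD-IGS rats, aged 6 to 8 weeks when bought, had been dosed once a day by oral gavage with 1 of 21 compounds or with the vehicle alone, and thigh muscle was taken after 3 d or 5 d. The 122 treated arrays held 6 per compound, except 4 for Dicyclomine and 5 each for Glyburide and Paroxetine, and 36 arrays came from controls given Water (18), CMC (12) or CMC/SDS/Povidone (6, at 5 d only). Each compound was given at 1 dose, between 47 mg/kg for Dexchlorpheniramine and 2500 mg/kg for Gabapentin. The comparison asks which of the genes differed between rats given a compound and rats given its own vehicle, which was Water for 9 compounds and CMC for 12.

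The labels place the arrays in 7 RNA extraction batches, named A to G here. Batches A, B and C held 35 of the 36 control arrays and 66 treated arrays, and batch D held 30 treated arrays and 0 controls. For 8 CMC compounds, Glyburide, Atenolol, Levosulpiride, Guanethidine, Chlorpropamide, Buspirone, Pentoxifylline and Flunarizine, there was no control of their vehicle in their batches. The mean of 10 skeletal muscle markers lay between 12.7 and 13.7 on every array, and that of 11 fast-fibre markers between 13.3 and 14.1, whereas the 10 slow-fibre markers ranged from 6.2 to 12.8. In bulk muscle, fewer cells of a type and less RNA per cell cannot be told apart.

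Hk2 and Phkg1 were called lower in the same 6 compounds, none of which had a control of its vehicle in its batches. Neither gene was called in any compound once extraction batch was in the model. Pfkfb3 was called higher in 2 other compounds. The promoters of these 3 genes are printed here. Each is the RefSeq sequence of the 250 bases before the gene's annotated start on build GRCr8, read 5′ to 3′ on the gene's strand: Pfkfb3 at chr17:71944683-71944932 (plus strand), Hk2 at chr4:116841276-116841525 (minus strand) and Phkg1 at chr12:32474827-32475076 (plus strand). Capitals mark the E-box CACGTG.
Pfkfb3: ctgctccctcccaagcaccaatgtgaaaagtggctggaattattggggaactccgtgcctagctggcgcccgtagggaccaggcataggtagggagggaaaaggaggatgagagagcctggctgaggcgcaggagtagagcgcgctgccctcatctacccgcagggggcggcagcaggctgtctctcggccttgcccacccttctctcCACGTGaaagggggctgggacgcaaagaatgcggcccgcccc
Hk2: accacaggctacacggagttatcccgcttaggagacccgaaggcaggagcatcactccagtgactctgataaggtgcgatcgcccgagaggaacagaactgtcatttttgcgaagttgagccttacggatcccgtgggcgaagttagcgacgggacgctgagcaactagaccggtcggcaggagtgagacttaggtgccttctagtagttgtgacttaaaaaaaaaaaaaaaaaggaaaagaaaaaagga
Phkg1: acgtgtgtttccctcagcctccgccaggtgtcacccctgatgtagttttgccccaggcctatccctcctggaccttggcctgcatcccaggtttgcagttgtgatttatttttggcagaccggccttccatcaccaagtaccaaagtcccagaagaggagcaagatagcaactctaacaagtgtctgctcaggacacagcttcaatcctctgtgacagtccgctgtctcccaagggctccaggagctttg
Promoters of 8 of the 10 genes were at hand. The E-box in Pfkfb3 lay at bases 209 to 214 of the stretch printed and was the sole match among the 8 genes to any of 5 motifs searched on both strands. CACGTG was present in 5.59% of 33469 rat promoters of the same length, the NR4A element AAAGGTCA in 1.24%, the FoxO site GTAAACA in 3.21%, the cAMP element TGACGTCA in 1.59% and the palindromic glucocorticoid response element in 0.012%. No motif contains another. These matches are a description of the letters only.

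Among the 36 controls the probe sets of the genes differed widely in spread. Pygm had a mean of 14.0 and an SD of 0.0573, and Pfkm a mean of 13.2 and an SD of 0.109. Both lie near the top of the scale, brighter than 99.9% and 99.7% of genes and close to the highest value in the table, 14.75, where differences can be compressed, and the part of that in their small spread was not tested. Pfkfb3 had a mean of 8.49 and an SD of 1.03, larger than that of 99.3% of genes. Hk2 (7.37, SD 0.495), Fbp2 (10.6, SD 0.436) and Pfkfb1 (9.71, SD 0.366) were also variable, and Phkg1 (10.6, SD 0.327), Phka1 (11.8, SD 0.290), Gys1 (11.4, SD 0.241) and Slc2a4 (11.4, SD 0.239) lay nearer the median SD of all genes, 0.217. None of the 10 genes differed between vehicles or between 5 d and 3 d in controls at an adjusted p of 0.05 (limma), where 0% of all genes were called between Water and CMC, 0.00703% between CMC/SDS/Povidone and CMC and 0% between times. Of these 30 comparisons 1 passed at an unadjusted p of 0.05, Pfkfb1 for Water minus CMC (0.28 ± 0.13 SE, adjusted p = 0.573, limma).

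Over the 210 pairs of a gene and a compound, 4 were called higher and 14 lower in treated rats (limma, a fold of at least 1.5 and an adjusted p of at most 0.01, adjusted over every gene tested in that compound). That is 1.90% and 6.67% of pairs, against 0.688% and 0.949% of pairs over all genes. The calls were unevenly placed. Hk2 and Phkg1 were each lower in 6 compounds, Pfkfb1 and Pfkfb3 were each higher in 2, Gys1 and Slc2a4 were each lower in 1, and Pfkm, Fbp2, Pygm and Phka1 were called in none. All 14 lower calls fell in 6 of the 8 compounds without a vehicle control in their batches, where they made up 17.5% of 80 pairs against 1.78% over all genes. The same 8 compounds held 2 higher calls, 2.5% of pairs against 1.13% over all genes. In the 13 compounds with such controls, 2 of 130 pairs were higher (1.54%, against 0.416% over all genes) and 0 were lower (0.44% over all genes). In a single model of all arrays that took the extraction batch as a block, 2 pairs were higher (0.263% over all genes) and 0 lower (0.275% over all genes). In the 8 compounds without such controls, that model called few genes of any kind, 0.0246% of pairs over all genes higher and 0.0448% lower.

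**Figure D1:**
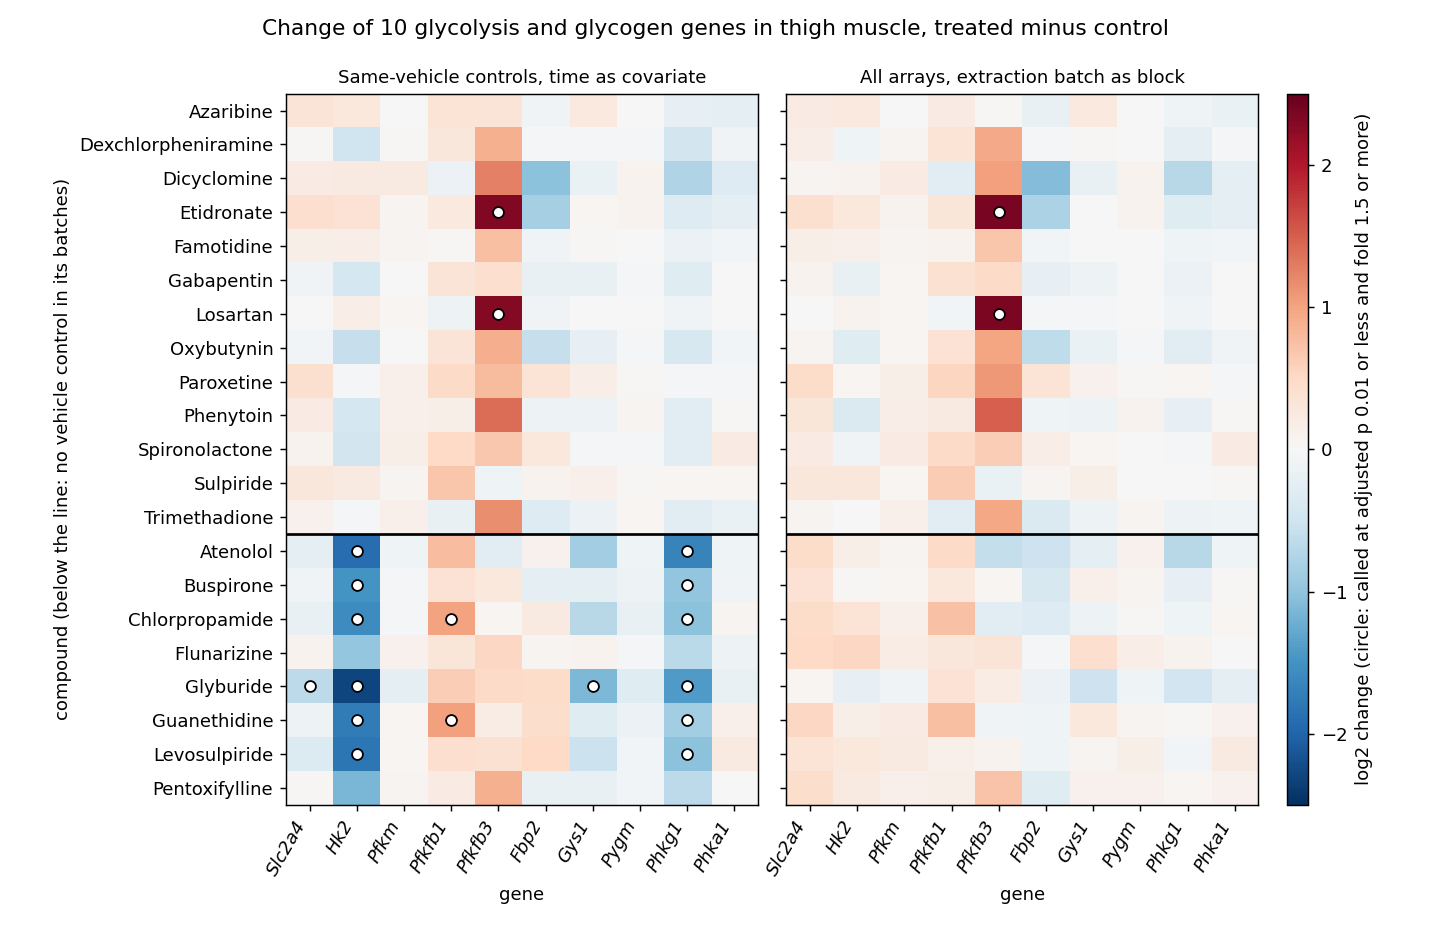
Log2 change, treated minus control, of the 10 genes (columns) in the 21 compounds (rows), against same-vehicle controls on the left and with extraction batch as a block on the right. Circles mark calls at adjusted p 0.01 and fold 1.5, and compounds below the line had no vehicle control in their batches. Hk2 and Phkg1 are low in that lower part of the left panel. In the same part of the right panel Hk2 lies between -0.21 and 0.52 and Phkg1 between -0.69 and 0.09, with no call. Pfkfb3 in Etidronate and Losartan is high in both panels.

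Slc2a4, the transporter, changed little in most compounds. Its largest rise was in rats given Etidronate, a bisphosphonate, where the 6 arrays lay at 11.7 (lowest), 11.9 (median) and 12.1 (highest), against 10.9, 11.4 and 11.8 in the 18 Water controls. The groups overlapped, and 5 of the 6 treated arrays lay above the highest control. The change was 0.41 ± 0.10 (SE, adjusted p = 0.00659, limma), a fold of 1.33, which is under the fold the call needs, and it was 0.40 with the batch block (adjusted p = 0.0115). In Glyburide the 5 arrays lay at 10.4, 10.8 and 11.3, against 10.9, 11.4 and 11.9 in the 12 CMC controls, and the change of -0.66 ± 0.15 was just inside the threshold (adjusted p = 0.00999, limma). That call ended when any of 14 of the 17 arrays was left out (changes between -0.68 and -0.59, adjusted p up to 0.047), which is every array but Glyburide 5 d replicate 3, CMC control 3 d replicate 4 and CMC control 5 d replicate 2. The change was 0.05 with the batch block.

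Hk2, which traps glucose in the fibre, had the lowest values of the 10 genes relative to controls. In rats given Glyburide, a sulfonylurea, the 5 arrays lay at 4.71, 4.90 and 5.40, and in those given Atenolol, a beta blocker, the 6 arrays lay at 4.77, 5.46 and 5.67, against 6.22, 7.42 and 7.92 in the 12 CMC controls. In Levosulpiride, a dopamine receptor antagonist, the 6 arrays lay at 5.07, 5.37 and 6.08. In these 3 compounds no treated array reached the lowest control. The Glyburide and Atenolol values lay below the median signal of every array (5.687 to 5.888). Changes of dim probe sets can be compressed, and there are no detection calls. The changes were -2.29 ± 0.24 in Glyburide (SE, adjusted p = 2.8e-05, limma), -1.91 ± 0.21 in Atenolol (adjusted p = 3.21e-05) and -1.80 ± 0.23 in Levosulpiride (adjusted p = 5.3e-05). Of all genes, 2.86%, 2.97% and 3.54% were called lower in Glyburide, Atenolol and Levosulpiride.

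In the other 3 compounds with a lower call for Hk2 the groups overlapped. Guanethidine, which blocks release from adrenergic nerve ends, had arrays at 5.10, 5.49 and 6.34 and a change of -1.74 ± 0.23 (SE, adjusted p = 9.96e-05, limma, 2.52% of all genes lower). Chlorpropamide, a second sulfonylurea, had arrays at 4.71, 5.71 and 6.94 and a change of -1.56 ± 0.25 (adjusted p = 0.000757, 1.86% of all genes lower). Buspirone, a serotonin receptor agonist, had arrays at 4.83, 5.83 and 6.48 and a change of -1.50 ± 0.26 (adjusted p = 0.00579, 0.394% of all genes lower). The Buspirone call was the least stable, lost without any 1 of 9 of its 18 arrays, which were 3 d replicates 1 and 2, 5 d replicates 2 and 3, and the CMC controls at 3 d replicates 5 and 6 and 5 d replicates 1, 3 and 4 (changes between -1.60 and -1.29, adjusted p up to 0.0239). Flunarizine (-0.97, adjusted p = 0.055) and Pentoxifylline (-1.15, adjusted p = 0.0657) had values of the same sign and missed the threshold. Against the controls of their own animal study, the Hk2 changes were -1.95 in Buspirone (adjusted p = 0.0945, limma) and -1.65 in Levosulpiride (adjusted p = 0.0591). Those controls had been given another vehicle and lay in other extraction batches than the treated arrays.

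The level of Hk2 differed by extraction batch and by hybridization period across compounds. The arrays had been hybridized in 2 periods, and all of batches D and G, with 2 of the 36 controls, fell in period 2. All 30 arrays of batch D, from 8 compounds, lay below the lowest of the 36 controls, with 5.33 ± 0.36 in batch D and 7.37 ± 0.50 in controls (SD). In batch G, 9 of 11 treated arrays lay below the lowest control, in batch E 4 of 14 and in batch C 4 of 43, and in batches A and B 0 of 7 and 0 of 16 did. In the fit of all arrays with compound, vehicle, time and batch, the Hk2 coefficient of batch D minus batch C was -2.09 ± 0.28 (SE, adjusted p = 1.37e-08, limma), and 14.3% of all genes differed between these batches at an adjusted p of 0.05. The coefficient was -1.06 in batch E (adjusted p = 8.07e-05, 26% of all genes) and -1.74 in batch G (adjusted p = 0.000161, 1.28% of all genes). Taken 1 label at a time, batch accounted for 75.4% of the variance of Hk2 over all arrays, against a median of 12.7% over all genes. Hybridization period accounted for 65.3%, against 4.05%, and compound for 65.6%, against 24.1%. These labels overlap, so the shares do not separate batch, period and compound. In batch C, 4 of the 7 treated arrays of period 2 lay below the lowest control and 0 of the 36 of period 1 did. In batch E, 3 of the 11 treated arrays of period 1 lay below it. The 2 controls of period 2 read 7.18 and 6.26 for Hk2.

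The same difference was seen within single compounds whose rats were spread over batches. In 7 compounds with arrays both in batches A to C and in batches D to G, Hk2 was lower in batches D to G in all 7 (median difference -1.74, from -1.90 to -0.47). Spironolactone had 1 array in batch D at 5.28, against 5.83 to 8.12 in its 5 arrays of batch C, and Oxybutynin had 1 array at 5.24, against 5.83 to 8.04 in its 5 arrays of batch C. In both compounds the lowest of the 5 was the only one hybridized in period 2, as the batch D array was. Those 2 were the only batch D arrays from compounds that also had arrays in batches A to C. With the block, the Hk2 changes were -0.21 in Glyburide, 0.15 in Atenolol, 0.25 in Levosulpiride, 0.14 in Guanethidine, 0.35 in Chlorpropamide and 0.04 in Buspirone, with SEs from 0.34 to 0.40 and adjusted p from 0.826 to 0.985. A compound effect and a batch effect on Hk2 cannot be told apart in compounds whose arrays all lie in batch D, and neither can batch D and hybridization period 2. With hybridization period as the block in place of batch, the Hk2 changes were -1.09 in Glyburide (adjusted p = 0.00779, limma), which stayed called, and between -0.75 and -0.55 in the other 5 compounds (adjusted p from 0.0445 to 0.189).

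**Figure D2:**
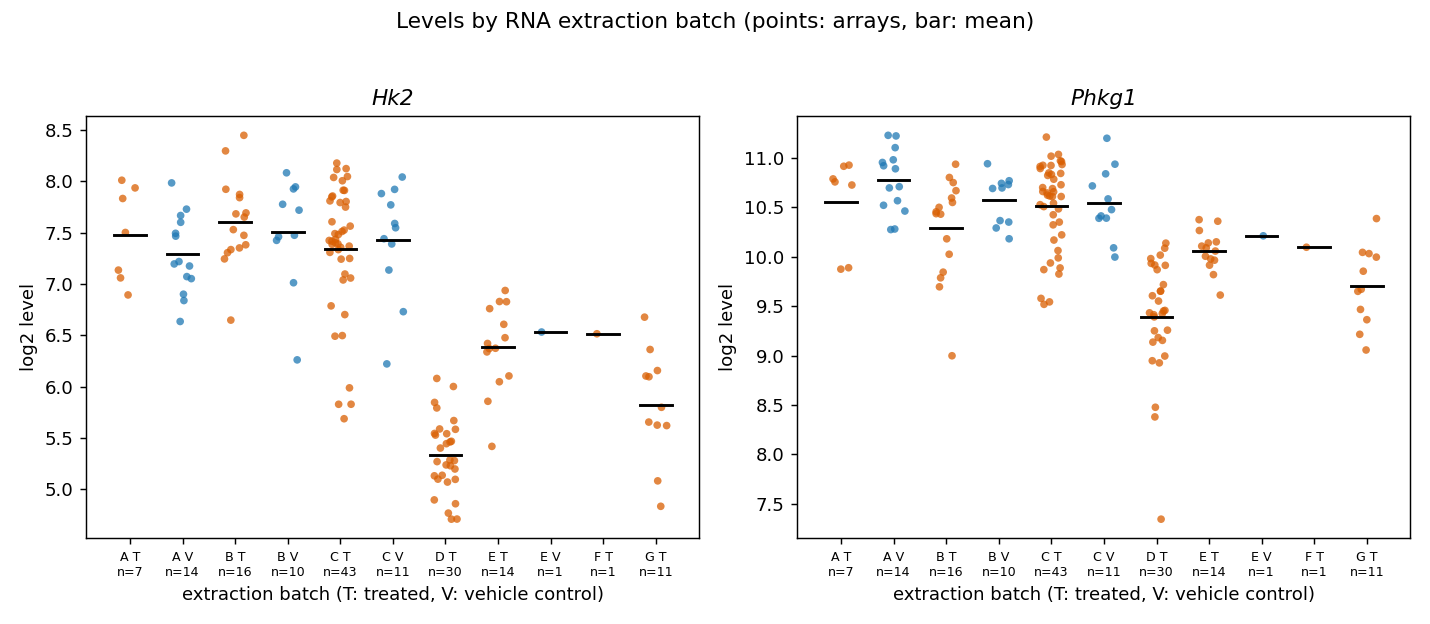
Log2 signal of Hk2 and Phkg1 on every array by extraction batch, with treated arrays (T) left of vehicle controls (V) in each batch. All 30 treated arrays of batch D lie below the lowest Hk2 control at 6.22, and 27 of 30 lie below the lowest Phkg1 control at 10.0.

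Sulpiride and Levosulpiride, the racemate and its S-enantiomer, were given at 1000 and 1200 mg/kg and so were not compared with each other. Hk2 differed from CMC controls by 0.22 ± 0.24 in Sulpiride (adjusted p = 0.820, limma) and by -1.80 ± 0.23 in Levosulpiride. All 6 Levosulpiride arrays were in batch D and no Sulpiride array was.

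Pfkm, the muscle phosphofructokinase, moved little. Its changes ran from -0.24 in Glyburide to 0.22 in Dicyclomine, an antimuscarinic drug. In Dicyclomine the 4 arrays lay between 13.3 and 13.5, against 13.1 to 13.4 in the 18 Water controls, and the change of 0.22 ± 0.05 (SE, adjusted p = 0.00541, limma) was a fold of 1.17. Of all genes, 2.88% were called higher and 2.76% lower in Dicyclomine.

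Pfkfb1, an isoform best known from liver and muscle, was higher in 2 compounds. In Guanethidine the 6 arrays lay at 10.3, 10.6 and 10.8, and in Chlorpropamide at 9.99, 10.7 and 10.8, against 8.60, 9.56 and 10.2 in the 12 CMC controls. The Guanethidine arrays did not overlap the controls, and 5 of 6 Chlorpropamide arrays lay above the highest control. The changes were 1.02 ± 0.21 in Guanethidine (SE, adjusted p = 0.00303, limma, 2.17% of all genes higher) and 1.01 ± 0.22 in Chlorpropamide (adjusted p = 0.00601, 1.32% of all genes higher). With the batch block they were 0.75 (adjusted p = 0.136) and 0.73 (adjusted p = 0.272) and were no longer called. With that block 0.155% of all genes were called higher in Guanethidine and 0% in Chlorpropamide. The Chlorpropamide call was also lost without any 1 of 5 arrays, its 3 d replicates 1 and 2, its 5 d replicates 2 and 3 and CMC control 3 d replicate 6 (changes between 0.96 and 0.99, adjusted p up to 0.0189). Pfkfb1 had a positive change in 18 of 21 compounds, with a median of 0.33, and these signs are not independent because compounds share controls.

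Pfkfb3, the inducible isoform with the strongest kinase activity, gave the 2 calls that were kept with the batch block. In Etidronate the arrays read 10.95, 11.76 and 10.52 at 3 d and 10.21, 10.14 and 9.33 at 5 d, and in Losartan, an angiotensin receptor blocker, they read 10.47, 10.81 and 10.88 at 3 d and 10.08, 11.04 and 9.57 at 5 d. The 18 Water controls, which both compounds share, lay at 4.94, 8.49 and 9.59. In each compound 5 of 6 arrays lay above the highest control and all 6 above the control mean. The changes were 2.31 ± 0.47 in Etidronate (SE, adjusted p = 0.00218, limma, 0.872% of all genes higher), a fold of 4.96, and 2.30 ± 0.45 in Losartan (adjusted p = 0.0033, 0.591% of all genes higher), a fold of 4.92.

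Pfkfb3 kept its size in these compounds when extraction batch was taken into account. The changes were 2.37 in Etidronate (adjusted p = 7.16e-05, limma) and 2.36 in Losartan (adjusted p = 0.000204) with the block, where 0.957% and 0.57% of all genes were higher, and 2.67 and 2.65 within the batches shared with Water controls (adjusted p = 0.000216 and 0.000126, with 0.513% and 0.464% of all genes higher). Without the lowest control, Water control 3 d replicate 3, they were 2.11 (adjusted p = 0.000408) and 2.11 (adjusted p = 0.000336). Leaving out Etidronate 3 d replicate 1 or 2 raised its adjusted p to 0.0105 and 0.0128 (changes 2.20 and 2.03), and leaving out Losartan 3 d replicate 1, 2 or 3 or 5 d replicate 2 raised its adjusted p to between 0.0119 and 0.0167 (changes between 2.19 and 2.27). Set against the other compounds of their own batches in place of controls, the changes were 1.12 (adjusted p = 0.174) and 1.11 (adjusted p = 0.727). No control came from the animal study of Etidronate or from that of Losartan, so compound and study cannot be told apart for these calls.

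A second Pfkfb3 probe set, 1369794_a_at, was also called higher in both compounds. Its arrays lay at 7.21, 8.71 and 9.91 in Etidronate and at 7.43, 8.59 and 9.62 in Losartan, against 5.67, 6.64 and 7.77 in Water controls, with changes of 2.02 ± 0.30 (SE, adjusted p = 0.000131, limma) and 1.99 ± 0.28 (adjusted p = 8.21e-05). The third, 1397082_at, changed by 0.20 (adjusted p = 0.166) and 0.29 (adjusted p = 0.0795). The probe sets therefore did not move alike, and the files do not say which transcripts each reads.

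Pfkfb3 had a positive change in 19 of 21 compounds (median 0.67) with the probe set used, in 10 of 21 with 1369794_a_at (median -0.12) and in 11 of 21 with 1397082_at. Compounds of a vehicle share their controls, so these signs are not independent. The next largest changes were 1.40 in Phenytoin (adjusted p = 0.137, and adjusted p = 0.0483 with the block), 1.25 in Dicyclomine (adjusted p = 0.193) and 1.16 in Trimethadione (adjusted p = 0.143), none of them called. By group, the highest means were 11.1 ± 0.63 at 3 d of Etidronate, 10.8 ± 0.50 at 3 d of Dicyclomine, 10.7 ± 0.22 at 3 d of Losartan and 10.5 ± 0.52 at 3 d of Phenytoin (SD, n = 3 each, 2 for Dicyclomine), neighbours that lay within their spread of each other. The lowest were 7.94 ± 0.42 at 3 d of Atenolol and 7.92 ± 1.34 in the 9 Water controls at 3 d.

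**Figure D3:**
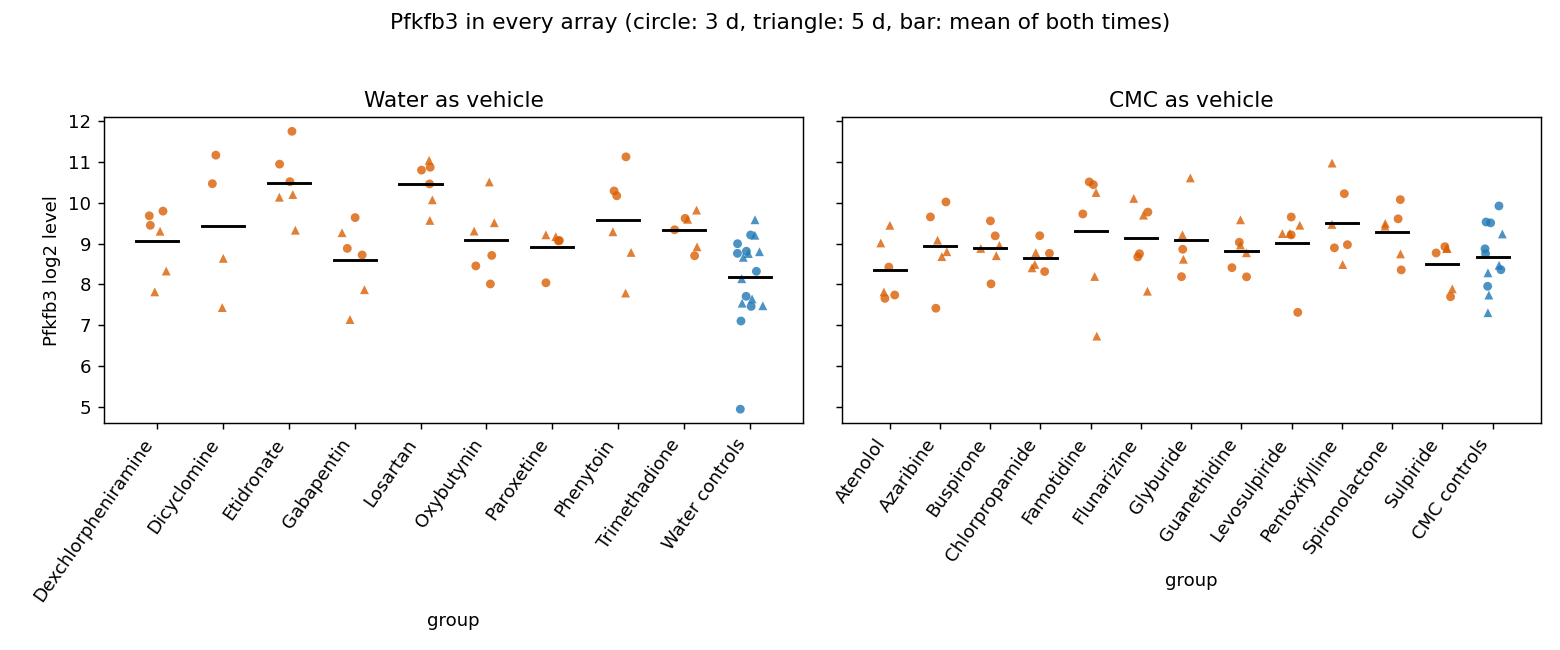
Log2 signal of Pfkfb3 on every array, by compound, for Water compounds and CMC compounds in separate panels with the controls of each vehicle at the right. Etidronate and Losartan arrays lie between 9.33 and 11.8, and Water controls between 4.94 and 9.59.

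Of all genes, 0.872% were called higher in Etidronate and 0.591% in Losartan. Of 16 measured genes of a list of AMPK and energy sensors, 2 were called higher in both compounds and 0 lower. They were the nuclear receptors Nr4a1 and Nr4a3, known to be induced by contraction and adrenergic signals in muscle. Nr4a3 changed by 3.94 in Etidronate (adjusted p = 0.000142, limma) and 4.47 in Losartan (adjusted p = 3.73e-05), and Nr4a1 by 1.49 (adjusted p = 0.000571) and 1.45 (adjusted p = 0.00101). Pdk4, a kinase that holds back pyruvate oxidation, was higher in Etidronate (1.56, adjusted p = 0.000604, limma) and the enolase gene Eno1 lower (-0.81, adjusted p = 7.88e-05). In Losartan 0 genes were called in any of the 12 marker lists of cell types and tissues. In Etidronate the called markers were all lower, 2 of 7 for fibroblasts (Lum -1.60, Col3a1 -0.76), 1 of 7 for endothelium (Kdr -0.85) and 1 of 8 for macrophages (C1qa -1.18), where 1.6% of all genes were called lower. The part of these cells in the Pfkfb3 value was not tested.

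Fbp2, the muscle fructose bisphosphatase, was the gene whose change differed between times. In Dicyclomine it read 10.5 and 10.8 at 3 d, against 9.94 to 11.1 in the 9 Water controls at 3 d, and 8.80 and 8.41 at 5 d, against 9.70 to 11.3 in the 9 Water controls at 5 d. The 3 d arrays lay within the control range and the 5 d arrays below it. The change was 0.08 at 3 d and -2.15 ± 0.33 at 5 d (SE, adjusted p = 0.00102, limma). The change at 5 d minus that at 3 d was -2.23 ± 0.47 (adjusted p = 0.00848, limma, 3.98% of all genes passing at an adjusted p of 0.05) and -2.29 with the batch block (adjusted p = 0.00791). It was the only one of 210 such differences past 0.05 after adjustment, and 17 were past an unadjusted p of 0.05. With 2 arrays per time, the difference lost its call without 3 d replicate 2 (-2.10, adjusted p = 0.0634) and without 5 d replicate 2 (-2.03, adjusted p = 0.075).

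The time differences of the other 9 genes in Dicyclomine did not pass. Phkg1 read 10.0 and 10.9 at 3 d and 9.70 and 9.00 at 5 d, and its difference between times was -1.32 (adjusted p = 0.0626, limma). For Phka1 the difference was -1.01 (adjusted p = 0.0782), for Pfkfb1 -0.75 (adjusted p = 0.0844) and for Pfkfb3 -3.29 (adjusted p = 0.104), with Pfkfb3 at 11.17 and 10.47 at 3 d and at 8.64 and 7.43 at 5 d. Hk2 had the opposite sign (1.04, adjusted p = 0.376), at 6.65 and 7.35 at 3 d and at 7.87 and 8.45 at 5 d. The rest were 0.37 for Gys1, 0.10 for Slc2a4, 0.03 for Pfkm and -0.06 for Pygm (adjusted p from 0.601 to 0.945). Over both times Fbp2 changed by -1.03 ± 0.33 in Dicyclomine (adjusted p = 0.0316) and by -0.82 ± 0.25 in Etidronate (adjusted p = 0.0328), neither of them called.

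**Figure D4:**
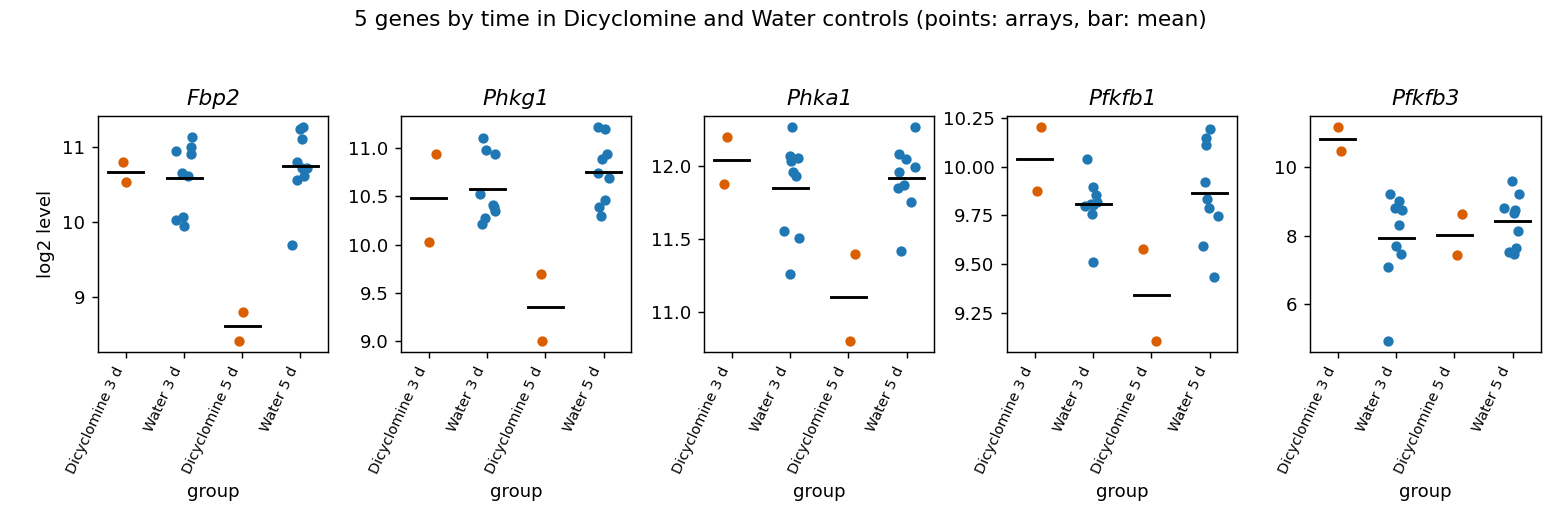
Log2 signal of Fbp2, Phkg1, Phka1, Pfkfb1 and Pfkfb3 in Dicyclomine rats, left of Water controls, at 3 d and at 5 d, 1 point per array. Fbp2 is at 8.41 and 8.80 at 5 d of Dicyclomine, below all 9 Water controls at 5 d.

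In Dicyclomine 9 of the 91 measured genes of the 5 pathway lists were called (9.89%), against 5.64% of all genes. Within the 1 batch that held Dicyclomine arrays and Water controls, 0% of all genes were called in either direction, and the change of Fbp2 over both times was -1.31 there (adjusted p = 0.231, limma). Gaa, the lysosomal glucosidase that degrades glycogen, was higher by 1.16 (adjusted p = 1.32e-05, limma), and the aldolase Aldoc by 0.76. Lower were Irs1 (-1.19), Eno1 (-1.06), the GLUT4 trafficking gene Tbc1d1 (-1.06), Gpd1 (adjusted p = 0.00207), the coactivator Ppargc1a (-0.90), the lactate transporter Slc16a3 (-0.77) and the pyruvate carrier Mpc1 (-0.63). The median over 19 glycolytic enzymes was -0.34, against 0.02 over all genes. The mean of the slow-fibre markers was 10.2 to 11.3 at 3 d and 10.7 to 11.1 at 5 d, and that of red blood cell markers was 7.53 to 7.75 at 3 d and 7.04 to 7.08 at 5 d. Of single markers, the fat cell gene Cidea was higher (2.28), and Kdr (-1.06), Lum (-2.02), Hbb (-1.75) and Alas2 (-1.43) were lower. Over both times the list mean was 6.98 to 7.99 for 9 fat cell genes (controls 6.06 to 9.34). It was 7.9 to 8.29 for 7 endothelial genes (controls 7.79 to 9.1) and 9.74 to 10.7 for 7 fibroblast genes (controls 10.1 to 11.4). For the 6 red blood cell genes the controls lay at 7.72 to 8.64. The part of these cells in the values of Fbp2 was not tested.

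Gys1, glycogen synthase, was lower in Glyburide alone. The 5 arrays lay at 9.04, 10.5 and 10.9, against 10.8, 11.5 and 11.7 in the 12 CMC controls, with overlap at the upper end. The change was -1.12 ± 0.23 (SE, adjusted p = 0.00428, limma), -0.51 with the batch block, and the call was lost without 3 d replicate 1 (-1.09, adjusted p = 0.0116) or 2 (-1.20, adjusted p = 0.0101). In Levosulpiride the change of -0.54 (adjusted p = 0.00941) was under the fold limit, and in Atenolol it was -0.87 (adjusted p = 0.0154). Batch D was below batch C by 0.66 for Gys1 (-0.66 ± 0.19 SE, adjusted p = 0.00995, limma).

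The probe set used for Pygm, the muscle phosphorylase, had changes between -0.31 and 0.10 and that of Phka1 between -0.31 and 0.23, and neither was called in any compound. The Pygm probe set lies near the top of the scale, and a dimmer one, 1375476_at, was called lower in 4 compounds, with a change of -1.80 in Atenolol and -1.73 in Glyburide.

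Phkg1, the catalytic subunit of phosphorylase kinase, was lower in the same 6 compounds as Hk2. It had a negative change in 20 of 21, signs that are not independent because compounds share controls. In Glyburide the 5 arrays lay at 8.48, 9.39 and 9.46, in Levosulpiride at 9.15, 9.64 and 9.98 and in Atenolol at 7.35, 9.10 and 10.02, against 10.0, 10.7 and 11.2 in the 12 CMC controls. The first 2 of these compounds did not overlap the controls, and Atenolol did at its highest array. The changes were -1.67 ± 0.28 in Atenolol (SE, adjusted p = 0.000676, limma), -1.42 ± 0.20 in Glyburide (adjusted p = 0.000284) and -1.03 ± 0.18 in Levosulpiride (adjusted p = 0.000555).

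In Chlorpropamide the Phkg1 change was -1.03 (adjusted p = 0.00499, limma), in Buspirone -0.99 (adjusted p = 0.00622) and in Guanethidine -0.87 (adjusted p = 0.00303). With the batch block the 6 changes ran from -0.69 in Atenolol to 0.03 in Guanethidine and none was called. The share of all genes called lower with the block ran from 0.00703% in Glyburide and Levosulpiride to 0.176% in Guanethidine. The Buspirone call was lost without any 1 of 11 arrays (changes between -1.06 and -0.88, adjusted p up to 0.0257): all its treated arrays but 5 d replicate 3, the CMC controls at 3 d replicates 1, 4, 5 and 6 and those at 5 d replicates 3 and 4. The Chlorpropamide call was lost without 3 d replicate 1 or 5 d replicate 2 (adjusted p = 0.0129 and 0.0144), and the Guanethidine call without 3 d replicate 2 (-0.84, adjusted p = 0.01). In batch D, 27 of 30 arrays lay below the lowest of 36 controls, with 9.39 ± 0.59 in batch D and 10.6 ± 0.33 in controls (SD), and the coefficient of batch D minus batch C was -0.93 ± 0.24 (SE, adjusted p = 0.00372, limma).

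In the 7 compounds with arrays in both sets of batches, Slc2a4, Pygm and Phkg1 were, like Hk2, lower in batches D to G in all 7 (medians -0.52, -0.15 and -0.63), Gys1 and Pfkm in 6, Phka1 in 5, Pfkfb3 in 4, Fbp2 in 2 and Pfkfb1 in 1. Of the 10 genes, 5 differed between batches D and C at an adjusted p of 0.05, against 14.3% of all genes. They were Hk2, Phkg1, Slc2a4 (-0.68, adjusted p = 1.66e-05, limma), Gys1 and Pygm (-0.21, adjusted p = 0.0117), all lower in D. Fbp2 (0.61, adjusted p = 0.139), Pfkfb1 (0.34, adjusted p = 0.268), Pfkfb3 (0.32, adjusted p = 0.745), Phka1 (0.02) and Pfkm (-0.16, adjusted p = 0.211) did not pass. In batch E, Slc2a4 (-0.45, adjusted p = 0.000104), Pygm (-0.15, adjusted p = 0.0119) and Phkg1 (-0.48, adjusted p = 0.0396) passed beside Hk2, and in batch G none did beside Hk2. Of all genes, 26% passed in batch E and 1.28% in batch G. With the block, Slc2a4 had a positive change in all 21 compounds and was called in none. The compounds share controls and batch coefficients, so these signs are not independent. Markers of other cells also moved in the compounds of batch D. Fibroblast genes were called lower in 4 of 7 in Levosulpiride (median -0.62), 2 of 7 in Guanethidine, 1 of 7 each in Buspirone and Chlorpropamide and 0 of 7 in Atenolol and Glyburide. Shares over all genes were 3.54% in Levosulpiride, 2.52% in Guanethidine, 0.394% in Buspirone, 1.86% in Chlorpropamide, 2.97% in Atenolol and 2.86% in Glyburide. The mean of 6 red blood cell markers was 7.22 to 8.32 in batch D, against 7.72 to 8.64 in controls. The part of these cells in the Hk2 and Phkg1 values was not tested.

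The files hold 8 further probe sets for Pfkm, Pfkfb3, Phka1, Pygm and Slc2a4. For Pygm, 1375476_at was lower in Atenolol (adjusted p = 0.00684, limma), Glyburide, Levosulpiride (-0.99) and Guanethidine (-0.77), and its coefficient for batch D minus batch C was -1.08 (adjusted p = 0.0156), against -0.21 for the probe set used. For Phka1, 1369357_at had a coefficient of -1.11 (adjusted p = 0.0178), against 0.02 for the one used. For Pfkm, 1386961_at was lower in Atenolol (-1.30, adjusted p = 0.00593) and in Levosulpiride (-0.74, adjusted p = 0.00371), while the dim 1384632_at was higher in Levosulpiride (0.63, adjusted p = 0.000312), so that the 2 probe sets were called in opposite directions in 1 compound. For Slc2a4, 1388958_a_at was lower in 5 compounds (changes from -1.03 to -0.65), and Pfkfb3 1369794_a_at in Atenolol (-1.02), Chlorpropamide (-0.93) and Guanethidine (-0.84). With the batch block, the only calls among the further probe sets were the 2 higher ones of Pfkfb3.

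**Figure D5:**
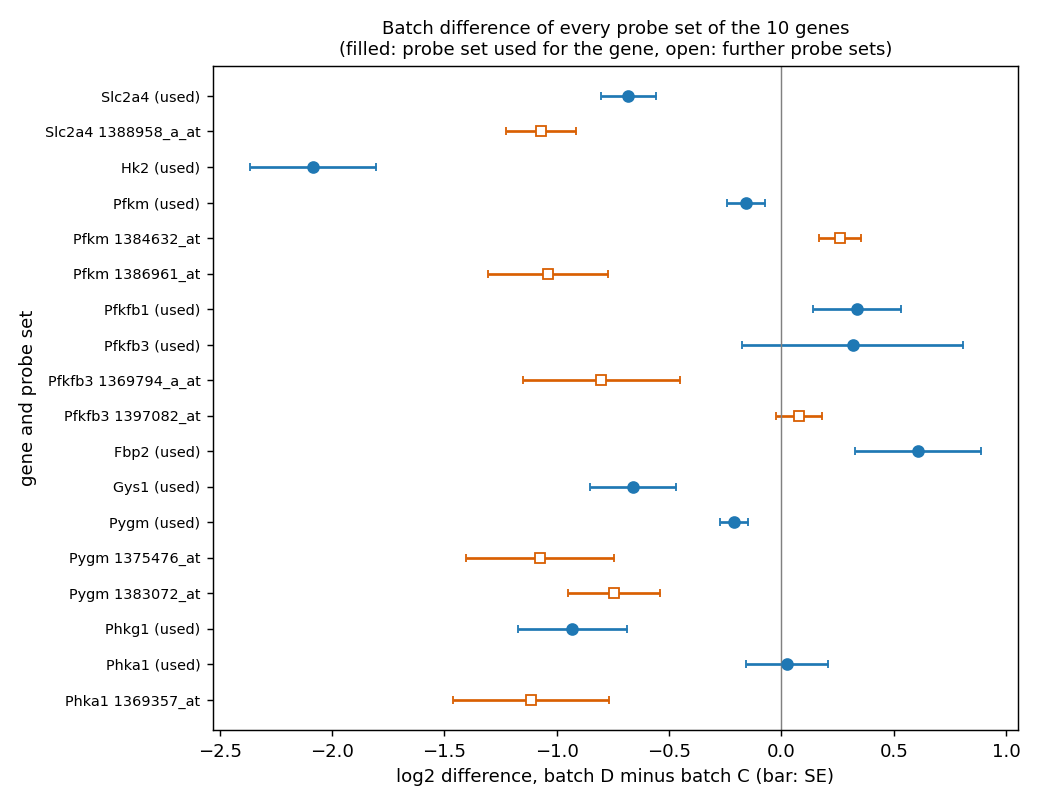
Coefficient of batch D minus batch C, log2 ± SE, for all 18 probe sets of the 10 genes, in the fit of all arrays. For Pygm, Phka1 and Pfkm the probe set with the highest mean lies nearer 0 (-0.21, 0.02 and -0.16) than the most shifted further one (-1.08, -1.11 and -1.04).

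A sign of RNA quality, the Gapdh probe set from the 3′ end of the transcript minus that from the 5′ end, was shifted over most of batch D. It exceeded the highest of the 36 controls (0.278) on 23 of 30 arrays of batch D and 7 of 11 of batch G, against 7 of 43 in batch C, 1 of 7 in A, 1 of 14 in E and 0 of 16 in B. The median was 0.354 in batch D, 0.289 in batch G and 0.196 in controls. Hk2, Phkg1 and Gys1 were low in the same batches, and the part of RNA quality in their values was not tested. The difference was largest on 3 arrays of batch D, 1.26 on Atenolol 3 d replicate 1, 3.02 on Glyburide 5 d replicate 2 and 1.58 on Chlorpropamide 3 d replicate 2. On these 3 arrays Gys1 read 8.91, 9.04 and 8.97, below the 10.2 of the lowest of the other 27 batch D arrays, and Phkg1 read 7.35, 8.48 and 8.38, below 8.93. Pygm 1375476_at read 8.52, 9.16 and 8.89, below 11.3. For Hk2 the same arrays read 4.77, 4.71 and 4.71, and the lowest other array 4.86. Without these arrays 16 of the 18 calls were kept. Only calls in Atenolol, Glyburide and Chlorpropamide could change, because fits of the other compounds do not use these arrays. Those lost were Pfkfb1 in Chlorpropamide (0.97, adjusted p = 0.0139, limma) and Slc2a4 in Glyburide (-0.63, adjusted p = 0.0218).

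The remaining genes of the pathway were read from 5 lists. Over all genes, 0.688% of pairs of a gene and a compound were higher and 0.949% lower. Of 19 measured glycolytic enzymes, 1 of 399 pairs was higher (0.251%) and 14 lower (3.51%), with 0 and 3 under the batch block. Of 21 genes of glucose uptake and its control, 0 of 441 pairs were higher and 24 lower (5.44%), with 1 and 5 under the block. Of 20 glycogen genes 3 of 420 pairs were higher (0.714%) and 0 lower, with 1 and 0 under the block. Of 16 AMPK and energy sensor genes 4 of 336 pairs were higher and 4 lower (1.19% each), with 6 and 2 under the block, and of 15 genes of pyruvate use 2 of 315 were higher and 2 lower (0.635% each), with 0 and 2 under the block. The genes lower in 3 or more compounds were Irs1, the insulin receptor substrate (9 compounds, 1 with the block), Akt2, the kinase downstream of it (5, 0 with the block), Vamp2 (5, 0), Mef2d, a transcription factor of Slc2a4 (4, 0), Pfkl (5, 0), Hk1 (4, 0), Eno1 (3, 2) and the AMPK subunit Prkab2 (3, 0). Tbc1d1 was lower in 1 compound and, with the block, in 4, which were Dicyclomine, Etidronate, Phenytoin and Trimethadione.

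The genes whose values ran most closely with each of the 10 were found from Pearson correlations over all arrays, after the mean of each group was taken out. These are descriptions over arrays that share batches and RNA quality. Phka1 ran closest with Phkb, another phosphorylase kinase subunit (r = 0.846), and with the glycolytic isomerase Gpi (0.827). Pfkm ran with the glycogen gene Pgm1 (0.883) and with Dusp3 (0.845), Fbp2 with Gpi (0.757) and Mybph (0.707), and Slc2a4 with the genes of fatty acid oxidation Cpt1b (0.779) and its control Acacb (0.755). Gys1 ran with Ogdh (0.894) and Cap2 (0.864), Pygm with Ywhae (0.841) and Oaz2 (0.83), and Phkg1 with Ppat (0.834) and Prkab2 (0.833). Hk2 ran with the iron regulator Ireb2 (0.862, or 0.787 with batch means also taken out) and with Golph3 (0.811, 0.703). Pfkfb1 had Ndufa9 (0.658) and Pstk (0.653), and Pfkfb3 had the weakest partners, Tcf23 (0.545) and Gjc1 (0.541). Within the group the closest pair was Pfkm and Pygm (0.789), and the lowest value was that of Pfkfb3 and Slc2a4 (-0.307).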

How the data were processed

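The deposited table held 1 log2 value per probe set and array, normalized by the authors with RMA per the submitters' processing notes. The RMA version is not given in the sources used here, nor which arrays were run together. The study's methods name frozen RMA. Such values compress the changes of dim and of very bright transcripts, and there are no detection calls. Array medians were 5.687 to 5.888, and the number of arrays, not a read depth, limits precision. Of 31099 probe sets, 57 were controls, 20826 had 1 gene symbol in the platform annotation, 436 several and 9780 none. Each of 14217 genes was read from its probe set with the highest mean.

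Arrays were grouped by the labelled compound, vehicle and time. For CMC control 3 d replicate 3 the title says 5 d and the other labels 3 d. Replicates are separate animals on 1 array each, so p-values measure both spreads. Each compound was fitted with its vehicle's controls and time as a covariate (limma 3.58.1, R 4.3.3), after the study's methods. A call needed a Benjamini-Hochberg adjusted p of 0.01 over all genes of the compound and a fold of 1.5, and other comparisons an adjusted p of 0.05. A further fit of all arrays held compound, vehicle, time and extraction batch. Errors after ± are SEs for changes and SDs for levels. The fits were checked on simulated data for Etidronate and Dicyclomine. Those data held no batch, hybridization period or RNA quality effect, so the check does not bear on these.

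All 10 genes are named in the comparisons of compounds with controls. Outside them, list genes are named where called in 3 or more compounds or among the 3 largest changes of their list in a compound, markers were named after their values were seen, and the 2 genes of highest correlation are named for each. The genes and lists were chosen with earlier results of these data known. Promoters are from RefSeq (GRCr8).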

Additional observations from a re-analysis of the deposited data

Results flagged for a closer look

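Of 50 sets of control values, 1 per gene and control group of 5 to 9 arrays, 6 had an end value whose gap to its nearest neighbour, over the whole range, passed Dixon's 95% limit, which chance alone passes in about 5% of sets. CMC control 3 d replicate 7 was the lowest of 7 arrays for Pfkm (12.91, next 13.22), Phkg1 (9.998, next 10.59) and Phka1 (11.38, next 11.84), 3 sets from 1 array of batch C. Pfkfb3 was lowest in Water control 3 d replicate 3 of batch A (4.939, next 7.102). Gys1 was low in Water control 5 d replicate 9 (10.85, next 11.33), and Fbp2 in Water control 5 d replicate 7 (9.698, next 10.56).

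The change of Fbp2 in Dicyclomine differed between 5 d and 3 d by -2.23 in the test of the difference itself, with 2 treated arrays at each time.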

How the results depend on the processing

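No paired analysis was possible because the labels carry no replicate numbers. The number of higher calls, 4, was 2 with the batch block, within shared batches, and over the 13 compounds with controls in their batches alone, and 10 at an adjusted p of 0.05 with no fold limit. The number of lower calls, 14, was 0 with the block and 5 with hybridization period as a block. It was 19 at an adjusted p of 0.05 with no fold limit and 21 against all 36 controls. Within shared batches and over those 13 compounds it was 0. The compounds of all 14 lower calls, and of the 2 higher calls of Pfkfb1, are left out of those counts, which cannot test them. Leaving out 1 control, or 1 replicate of every compound at once, gave 1 to 4 higher and 10 to 16 lower calls, with 1 higher call without 3 d replicate 1 and 2 without 3 d replicate 2 or 5 d replicate 2. With the block the sign turned for Hk2 in Atenolol (0.15), Buspirone (0.0386), Chlorpropamide (0.35), Guanethidine (0.14) and Levosulpiride (0.25), Slc2a4 in Glyburide (0.0535) and Phkg1 in Guanethidine (0.0267). Against other compounds of the same batches it turned for Hk2 in Atenolol (0.0408), Chlorpropamide (0.26), Guanethidine (0.0240) and Levosulpiride (0.17), and for Phkg1 in Chlorpropamide (0.12), Guanethidine (0.29) and Levosulpiride (0.25). Against the controls of the same animal study, which had another vehicle and lay in other batches, 4 called pairs could be fitted and none stayed called. They were Hk2 in Buspirone (-1.95) and Levosulpiride (-1.65) and Phkg1 in both (-1.08 each). All 18 called pairs kept direction and threshold with all 36 controls, the mean of each gene's probe sets, or only genes above the median level. Hk2, Phkg1, Pfkfb1 and Gys1 have no further probe set, so that mean could shift only the Pfkfb3 and Slc2a4 pairs. With arrays set to equal median (shifts up to 0.266), a second quantile step or limma-trend, 17 of 18 did. With 3 d arrays alone 0 of 18 stayed called and with 5 d arrays alone 1, from fewer arrays. The difference of Fbp2 in Dicyclomine between times lay between -2.42 and -2.03 when 1 array was left out. The batch block and within-batch values were planned, and the coefficient of batch D, the values by batch within a compound and the count over 13 compounds were chosen after seeing the data.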
